A study of Mus musculus with 11 samples.

Results

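The protein-coding genes of mouse chromosome 12 that the deposited genotype table lists were selected on that table alone, by gene type and chromosome, and ordered by gene start. The table held 229 of them, and the 225 analysed here are described as the members, out of 4461 genes in the table, of which 4056 were protein-coding. Because the table holds only genes chosen by the authors' adjusted p between genotypes in these same libraries, the size and direction of the genotype difference of each member is given as a description without a test. The contrasts between lines of the same genotype were not used to choose the members, and tests are given only for those. The same libraries entered the listing, however, so a gene high in a single control line could be listed as lower.

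RNA was sequenced from cultured lines of mammary tumors of female NIC mice on the FVB/N background. NIC mice carry a transgene in which the MMTV promoter drives an activated ErbB2 and the Cre recombinase from 1 transcript in the mammary epithelium, so every line of both groups carried ErbB2 and Cre. The 4 NIC/Cpt1aL/L lines (KO_1922, KO_1925, KO_2768 and KO_4258) also carried conditional alleles of Cpt1a, the carnitine palmitoyltransferase that admits long-chain fatty acids to mitochondria, and the 2 NIC/Cpt1a+/+ lines (WT_5257 and WT_8905) carried none. Tumors were taken 8 weeks after they could be felt, the age of the mice is not given in the sources used here, and the cells received no treatment. Each line came from 1 tumor and was grown in culture, so the difference between genotypes was carried by 4 lines against 2. Lines had 2 libraries each except KO_2768, which had 1, giving 11 libraries with totals of 18247312 to 25386785 reads in the 7 NIC/Cpt1aL/L libraries and 15199378 to 17372643 reads in the 4 NIC/Cpt1a+/+ libraries. Groups follow the genotype field of the labels, which the titles contradict as to allele status. Neither Cpt1a nor Erbb2 was among the listed genes, so the labels could not be checked against them here.

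The table also held few markers by which to check the labelled mammary epithelium. Of 11 luminal epithelial markers, 1 (Elf5, a luminal transcription factor) was listed, at 17.6 to 143 CPM (counts divided by the library total in megareads, scaled by TMM) in NIC/Cpt1aL/L lines and 298 to 316 CPM in NIC/Cpt1a+/+ lines. Of 8 basal markers 3 were listed (Acta2, Krt17 and Oxtr), of which 2 were higher and 1 lower in NIC/Cpt1aL/L lines. Their summed level was 1.27 to 14.2 CPM in NIC/Cpt1aL/L lines, 2.90 in WT_5257 and 55.6 in WT_8905. Of 9 fibroblast markers 4 were listed (Col1a2, Dcn, Pdgfrb and Thy1), and their summed level was 1393 CPM in KO_2768, 0 to 7.77 CPM in the other NIC/Cpt1aL/L lines and 0 to 0.0937 CPM in the NIC/Cpt1a+/+ lines. Of 7 immune markers 1 was listed (Csf1r, the receptor of a macrophage growth factor), at 312 CPM in KO_4258 and 0.0316 to 17.2 CPM in the other 5 lines. None of 5 endothelial markers was listed. In these bulk libraries fewer cells of a type and less RNA per cell cannot be told apart.

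Genes of 1 chromosome generally have their own promoters and unrelated functions, and a list of them is defined by place and not by pathway. The members accordingly ranged over housekeeping machinery (the proteasome subunits Psma6, Psma3 and Psmc1, the vacuolar proton pump subunit Atp6v1d, the ribosomal protein Rpl36al), general regulators (Dnmt3a, Yy1, Max, Dicer1) and genes used by few cell types (the interferon-induced Rsad2, the bradykinin receptors Bdkrb1 and Bdkrb2, the Serpina3 protease inhibitors). Such genes are read together below only because they lie on 1 chromosome.

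Most members were lower in the NIC/Cpt1aL/L lines. After a filter on low counts 220 of the 225 members remained by line, and 188 of these (85.5%) had a lower mean in the NIC/Cpt1aL/L lines and 32 a higher one, where 41.4% of all 4268 listed genes tested were lower. All 4 NIC/Cpt1aL/L lines lay below both NIC/Cpt1a+/+ lines for 168 members (76.4%), against a background of 38.2% of all listed genes tested, and above both for 15 members (6.82%), against 35.1%. The listing used this contrast, so nothing is read from these shares beyond their size. The median log2 difference of the members was -0.92 (NIC/Cpt1aL/L minus NIC/Cpt1a+/+), with quartiles of -1.34 and -0.70, and that of all listed genes was 0.49, so the members lay 1.42 below the listed genes on the log2 scale (a difference of medians of -1.42). Scaling moved the median of all listed genes between 0.36 with DESeq2's size factors and 0.60 with those of the authors, while the difference of medians was -1.44 and -1.42 under these scalings.

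Most members fell in 1 range of sizes. In 149 of the 220 the log2 difference lay between -1.5 and -0.5, in 27 it was under -2, and in 23 it was above 2. In 1 it lay between -0.5 and 0, and a listing by adjusted p leaves out most small differences. The lower members had a median of -1.04, and the lower listed protein-coding genes of other chromosomes one of -0.94. The range is therefore not read as a trait of the members. Over all members each NIC/Cpt1aL/L line alone gave a median near that of the 4 lines together, but the listing used these same lines. The median log2 ratio of a line to the mean of the NIC/Cpt1a+/+ lines was -1.004 in KO_1922, -0.85 in KO_1925, -0.97 in KO_2768 and -1.06 in KO_4258. The choice of control line mattered more. The NIC/Cpt1aL/L mean stood at a median log2 ratio of -1.24 to WT_5257 and of -0.49 to WT_8905, and the median log2 difference between genotypes was -1.23 without WT_8905 and -0.59 without WT_5257. Reads on the members made up 2.98% to 3.75% of the listed reads in NIC/Cpt1aL/L libraries, 5.66% to 5.71% in WT_8905 and 9.67% to 9.71% in WT_5257.

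**Figure D1:**
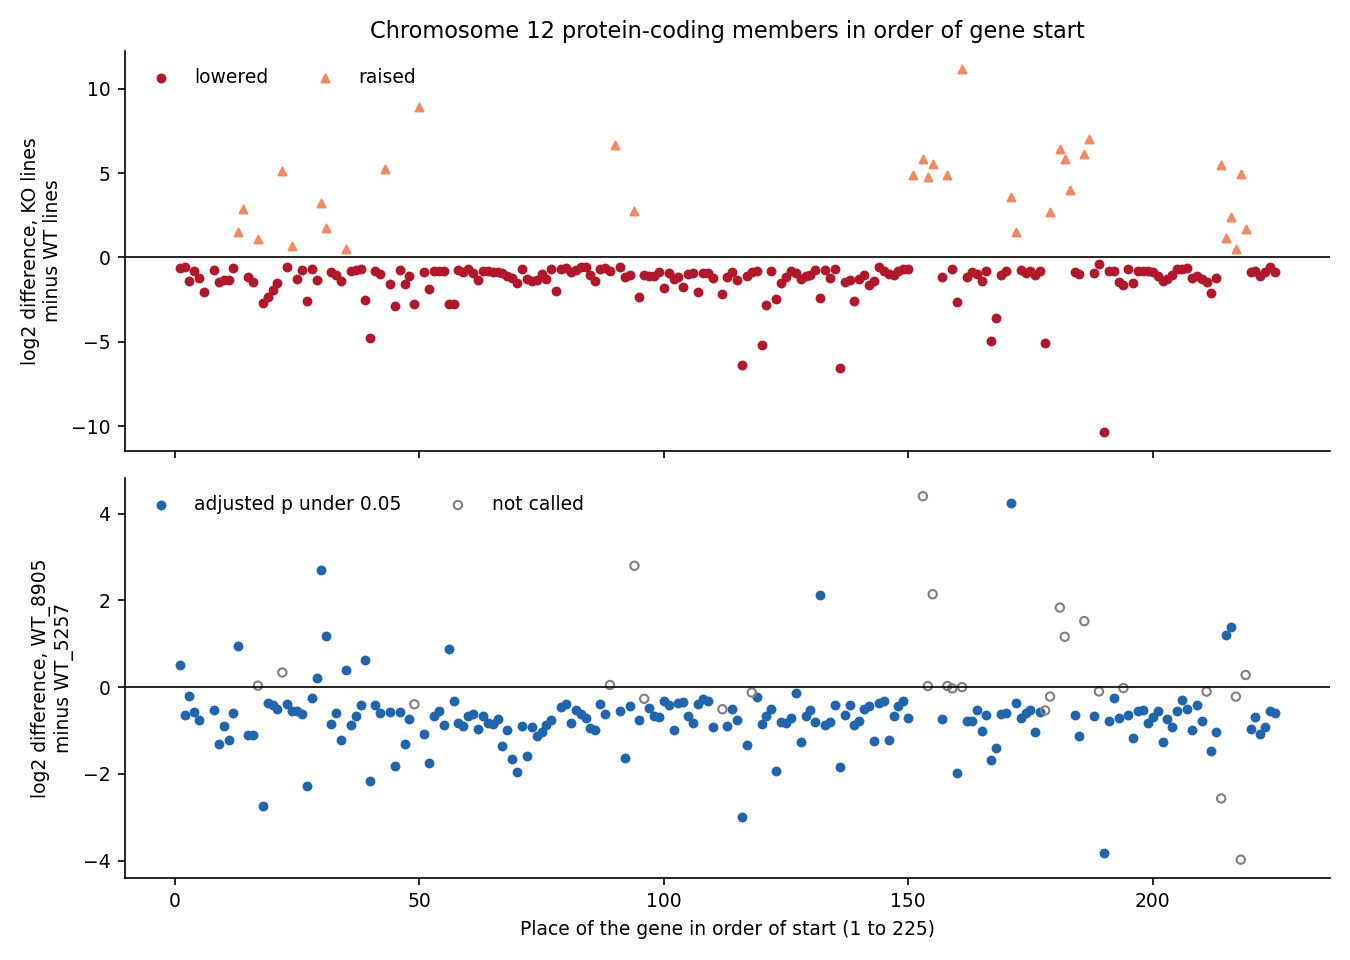
Log2 differences of the 225 members in order of gene start, NIC/Cpt1aL/L minus NIC/Cpt1a+/+ lines above (circles lowered, triangles raised, no test) and WT_8905 minus WT_5257 below (filled points have an adjusted p under 0.05); members removed by the filter have no point. In both panels most points lie in a band under 0 that runs from the first member to the last, and the raised members are scattered among them, some of them side by side.

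Lower members lay along the whole chromosome. They come from the 229 of its 643 annotated protein-coding genes that were listed for a difference between genotypes, so the genes left out are not described. In 12 of 12 bins of 10 Mb by gene start the median log2 difference between genotypes was under 0, from -1.44 between 10 and 20 Mb to -0.70 between 90 and 100 Mb, and the last of these holds 5 members. Each of the 4 NIC/Cpt1aL/L lines on its own was also under the NIC/Cpt1a+/+ mean in all 12 bins. The smallest value was -0.19, for KO_1925 between 90 and 100 Mb. The listing used these same lines, so their agreement is not read as replication, and no bins of other chromosomes are given. The lower listed protein-coding genes of other chromosomes also had a median log2 ratio under 0 in each line, from -1.001 in KO_4258 to -0.93 in KO_2768. Kif3c, a kinesin motor subunit and the first member (chr12:3365132-3406494, mm10, plus strand), was at 42.4, 56.8 and 61.4 CPM (lowest, median and highest of the 7 NIC/Cpt1aL/L libraries), 66.3 and 74.5 CPM in WT_5257 and 99.1 and 102 CPM in WT_8905. The last member, Sp4, a zinc finger transcription factor (chr12:118234933-118301440, minus strand), was at 4.12, 5.04 and 5.91 CPM in the NIC/Cpt1aL/L libraries, 11.6 and 11.1 CPM in WT_5257 and 7.90 and 7.05 CPM in WT_8905. Both end members were thus below all NIC/Cpt1a+/+ libraries in every NIC/Cpt1aL/L library, but they ordered the NIC/Cpt1a+/+ lines differently. In the order of tested members, the longest run of lower ones, 55 of them, went from Sptb (spectrin of the membrane skeleton) at 76580488 to Snw1 (a spliceosome component), which ends at 87472299. A run of 39 lower members went from Strn3 to Prkch, and one of 26 from Atg2b to 2010107E04Rik. These runs pass over genes that were not listed or not tested, and their lengths were not tested.

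The other nuclear chromosomes all had smaller shares of lower genes. Among listed protein-coding genes of the other 19 chromosomes, X included, the share with a lower mean in NIC/Cpt1aL/L lines ranged from 11.2% on chromosome 17 to 59.9% on chromosome 9, and the median log2 difference from -0.59 on chromosome 7 to 0.88 on chromosome 1. On chromosome 4, with 331 listed protein-coding genes the largest such list, 14.5% of 325 were lower. Chromosome 12 also had the largest share of its genes listed, 229 of 643 protein-coding genes of the GENCODE vM21 annotation (35.6%), against 10.4% on chromosome 14 to 24.9% on chromosome 4. These shares describe the listing and were not tested.

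**Figure D2:**
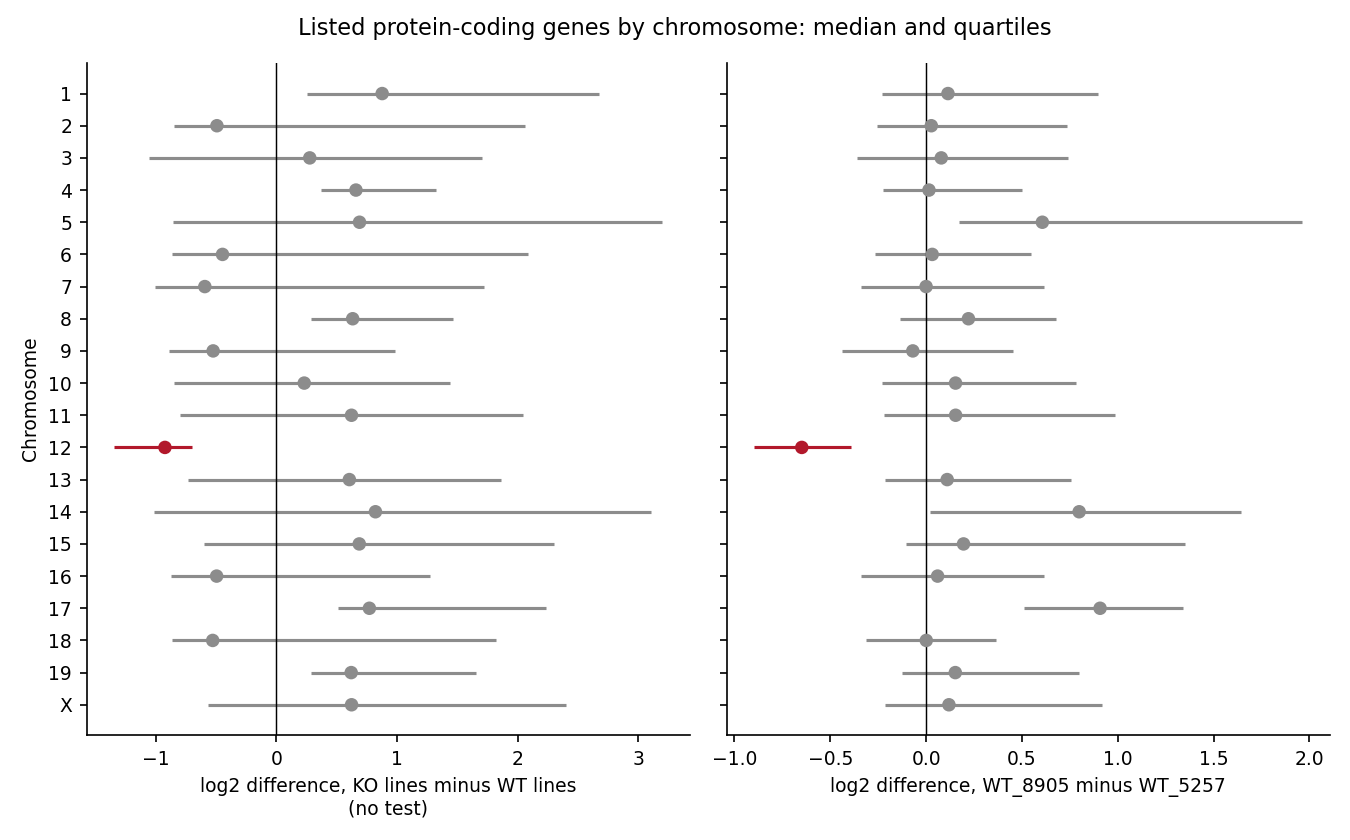
Median (points) and quartiles (lines) of the log2 difference of listed protein-coding genes on each nuclear chromosome, NIC/Cpt1aL/L minus NIC/Cpt1a+/+ lines on the left and WT_8905 minus WT_5257 on the right. Chromosome 12 (dark red) has the lowest median in both panels, -0.92 and -0.65, and is the one plotted chromosome whose upper quartile is under 0 in either panel.

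The comparison of the control lines asks how far the members differ within 1 genotype, a contrast on which they were not chosen. Its libraries did enter the listing, so a gene high in WT_5257 alone could be listed as lower in NIC/Cpt1aL/L lines. The shares below are therefore not independent of the listing. WT_8905 was lower than WT_5257 for most members. Of 211 members that passed the filter by library, 173 (82.0%) were called lower in WT_8905 by edgeR's quasi-likelihood test at an adjusted p under 0.05, against a background of 27.0% of the 3951 listed genes tested, and 12 (5.69%) were called higher, against 38.5%. The median log2 difference of the members was -0.65 (quartiles -0.90 and -0.39), and that of all listed genes was 0.12. With DESeq2's size factors 37.4% of listed genes were called lower and 30.5% higher, the median of all listed genes was -0.04 and 178 members were called lower. On the other 19 chromosomes the share called lower ranged from 2.99% on chromosome 17 to 42.8% on chromosome 9, and the medians from -0.07 on chromosome 9 to 0.91 on chromosome 17. Each line was 1 tumor line with 2 libraries, so these p-values measure the spread between duplicate libraries and not between tumors, and the adjustment covers the listed genes alone.

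Most calls were in the members lower in NIC/Cpt1aL/L lines, of which 171 of 186 (91.9%) were called lower in WT_8905. Of the listed protein-coding genes of other chromosomes that were lower in NIC/Cpt1aL/L lines, 633 of 1399 (45.2%) were. Of the 25 members higher in NIC/Cpt1aL/L lines that could be tested, 2 (8.0%) were called lower and 7 (28.0%) higher. The backgrounds were 27.0% and 38.5% of all listed genes tested. For 162 of 220 members (73.6%) all 4 NIC/Cpt1aL/L lines were below WT_8905 and WT_8905 was below WT_5257, against a background of 25.9% of all listed genes tested. The opposite order of the NIC/Cpt1a+/+ lines, with all NIC/Cpt1aL/L lines below both, was found for 6 members (2.73%). Of all listed genes tested, 38.2% had all NIC/Cpt1aL/L lines below both in either order, beside the 25.9% in the first order. In 12 of 12 bins the median of WT_8905 minus WT_5257 was under 0, from -0.91 between 60 and 70 Mb to -0.03 between 90 and 100 Mb.

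**Figure D3:**
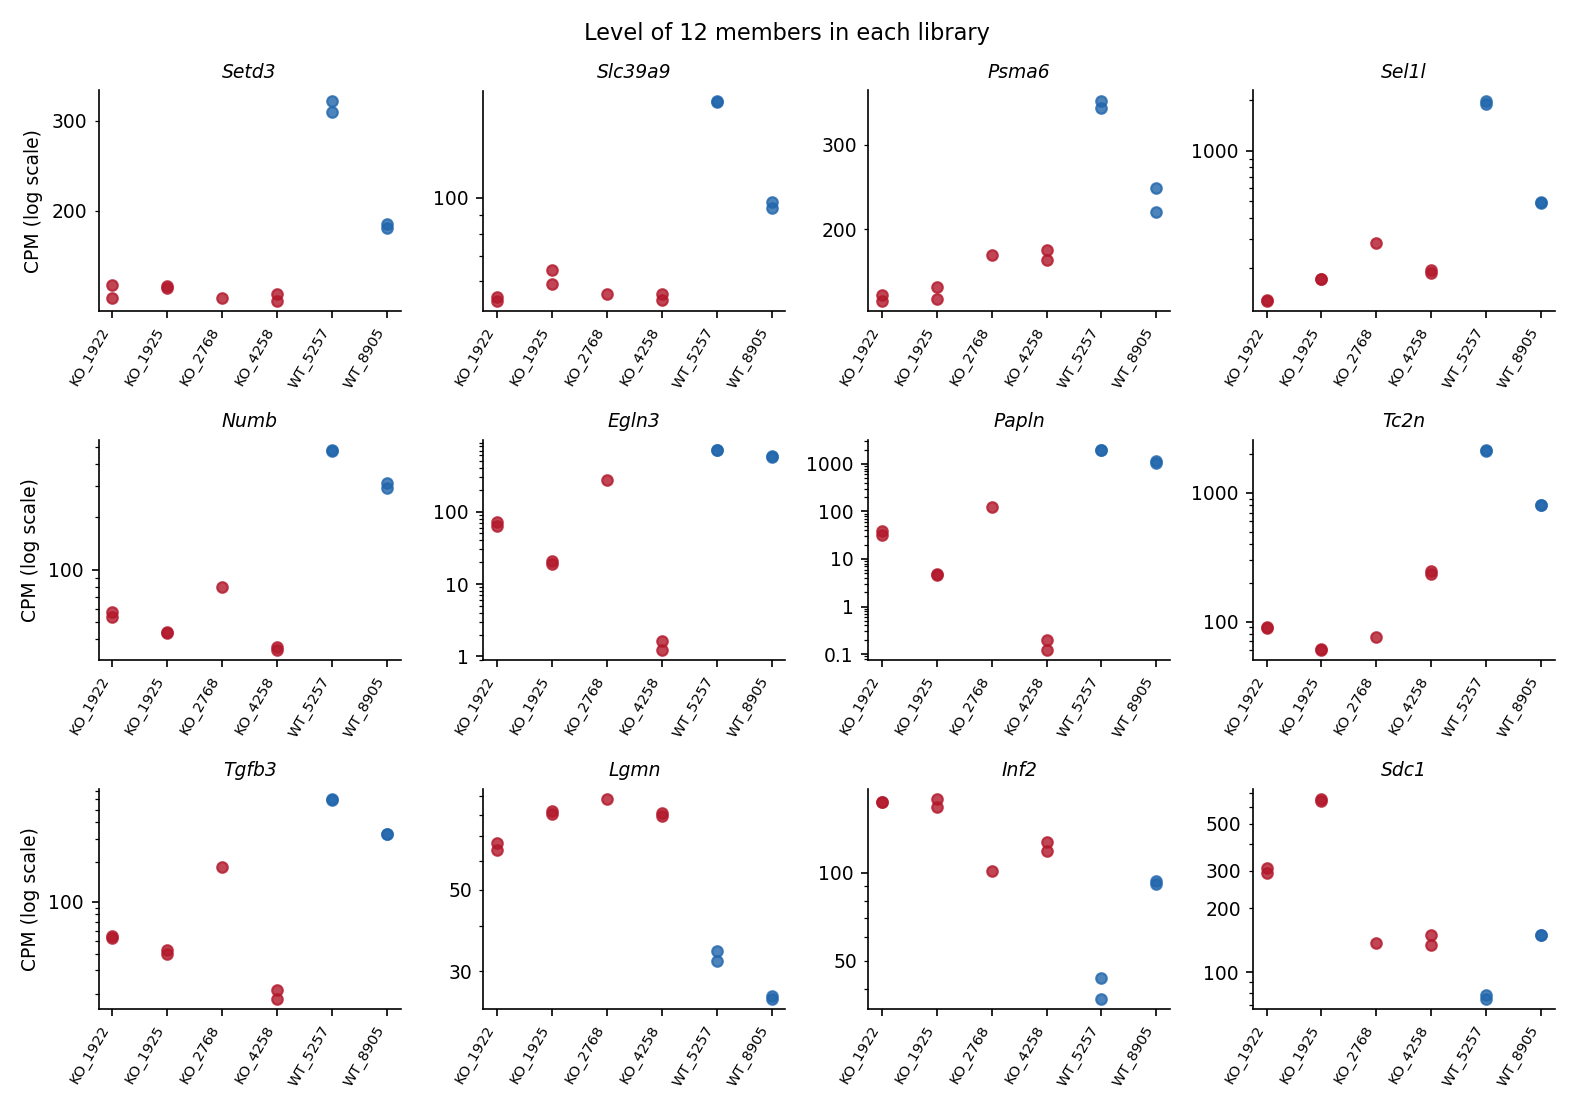
CPM on a log scale of 12 members, each point 1 library, with NIC/Cpt1aL/L (KO) lines in red and NIC/Cpt1a+/+ (WT) lines in blue. The first 9 genes are lower in every NIC/Cpt1aL/L library than in WT_8905 and lower in WT_8905 than in WT_5257, while Lgmn and Inf2 are higher in every NIC/Cpt1aL/L library than in any NIC/Cpt1a+/+ library and Sdc1 overlaps between the genotypes.

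The counts of the role lists below stand beside 85.5% of all members tested that were lower in NIC/Cpt1aL/L lines (41.4% of all listed genes). Of the members, 82.0% were called lower in WT_8905 and 5.69% higher (27.0% and 38.5% of all listed genes). The lists were not tested against these shares, and nothing is read from their counts about the roles. Among transcription and chromatin genes 28 of 29 members were lower in NIC/Cpt1aL/L lines (median log2 difference -1.07), the exception being Greb1, an estrogen-responsive gene, and 24 of 29 were called lower in WT_8905 and 2 higher. Setd3, a methyltransferase that modifies actin (chr12:108106431-108179314, minus strand), was at 133, 137 and 143 CPM in the NIC/Cpt1aL/L libraries, 329 and 313 CPM in WT_5257 and 185 and 189 CPM in WT_8905. The 7 NIC/Cpt1aL/L libraries thus lay close together and below every NIC/Cpt1a+/+ library. Its means were 139.7 ± 3.52 CPM (SD, n = 4 lines) and 249 ± 97.9 CPM (n = 2 lines), and the log2 difference between the WT lines was -0.78 (SE 0.050, adjusted p = 4.74e-16). Id2, an inhibitor of basic helix-loop-helix factors, was at 28.9, 58.3 and 126 CPM in NIC/Cpt1aL/L libraries, 193 and 182 CPM in WT_5257 and 227 and 205 CPM in WT_8905. It was 1 of the 12 members called higher in WT_8905 (log2 difference 0.20, SE 0.061, adjusted p = 0.00417), a call lost with DESeq2's size factors (0.02, adjusted p = 0.746) and when single libraries of KO_1922, KO_1925, KO_4258, WT_5257 or WT_8905 were left out (adjusted p up to 0.184). Egln3, the oxygen-dependent prolyl hydroxylase of hypoxia-inducible factors, ran from 1.24 CPM over a median of 21.0 to 276 CPM in NIC/Cpt1aL/L libraries and was at 563 to 723 CPM in the NIC/Cpt1a+/+ libraries.

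The list for DNA replication, repair and the cell cycle had 11 of 11 members lower in NIC/Cpt1aL/L lines, with a median of -0.94, and 11 of 11 called lower in WT_8905. Its members by FPKM were led by Ppp2r5c, a regulatory subunit of protein phosphatase 2A, with Fntb, the farnesyltransferase beta subunit, and Cinp, a checkpoint protein. Ppp2r5c was at 111, 127 and 133 CPM in NIC/Cpt1aL/L libraries, 298 and 278 CPM in WT_5257 and 159.7 and 166 CPM in WT_8905, and its log2 difference between the WT lines was -0.82 (SE 0.053). Fntb ranged from 41.8 to 50.3 CPM in NIC/Cpt1aL/L libraries and was at 81.8 to 118 CPM in NIC/Cpt1a+/+ libraries. Fntb overlaps Rab15 on the other strand, and the sources used here do not state whether counting used the strand, so reads of such pairs cannot be told apart. It also overlaps Churc1 on its own strand. Of the 225 members, 99 overlap an annotated gene on the other strand and 59 one on the same strand. Named genes such as Kif3c, Psma6, Numb and Tc2n are among the former, and overlaps are not given for each gene. In Cinp the NIC/Cpt1aL/L libraries ran from 20.1 to 39.8 CPM, WT_8905 was at 44.4 and 47.7 CPM and WT_5257 at 106 and 114 CPM.

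For RNA processing and translation 17 of 18 members were lower in NIC/Cpt1aL/L lines (median -0.70), and 17 of 17 tested were called lower in WT_8905. Rpl36al, a ribosomal protein, overlapped between genotypes, with 119, 161 and 189 CPM in NIC/Cpt1aL/L libraries, 338 and 341 CPM in WT_5257 and 173 and 193 CPM in WT_8905. Here the difference was mostly that between WT_5257 and all other lines. Eif5, which triggers GTP hydrolysis at the start codon, had means of 367 ± 69.2 and 589 ± 97.9 CPM, and Fcf1, needed for small ribosomal subunits, of 30.7 ± 8.17 and 63.5 ± 17.4 CPM (SD, n = 4 and 2 lines). Fcf1 overlaps Arel1 on the other strand.

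Protein folding and turnover had 15 of 16 members lower in NIC/Cpt1aL/L lines (median -0.86), with Lgmn the exception, and 16 of 16 called lower in WT_8905. The proteasome subunit Psma6 (chr12:55384222-55418454, plus strand) was at 142, 152 and 181 CPM in NIC/Cpt1aL/L libraries, 371 and 359 CPM in WT_5257 and 217 and 244 CPM in WT_8905. Psmc1, an ATPase of the proteasome cap, had means of 178 ± 41.8 and 326 ± 129.8 CPM. Sel1l, the adaptor of the ubiquitin ligase that clears misfolded proteins from the endoplasmic reticulum (chr12:91806043-91849157, minus strand), differed more. It was at 128, 173 and 282 CPM in NIC/Cpt1aL/L libraries, 499 and 488 CPM in WT_8905 and 1908 and 1995 CPM in WT_5257. The NIC/Cpt1a+/+ lines alone were thus far apart, by -1.98 on the log2 scale (SE 0.049, adjusted p = 3.4e-28).

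Of the vesicle traffic and secretory members 23 of 24 were lower in NIC/Cpt1aL/L lines (median -0.95), all but Rin3, a Rab5 exchange factor, and 21 of 24 were called lower in WT_8905 and 1, Rin3 itself, higher. Rab15, a small GTPase of endosome recycling, had the highest FPKM of all members, 224 over the 6 lines. It was at 285, 545 and 632 CPM in NIC/Cpt1aL/L libraries, 1424 and 1354 CPM in WT_5257 and 865 and 874 CPM in WT_8905. Npc2, which carries cholesterol out of lysosomes, had means of 301 ± 89.0 and 563 ± 52.3 CPM and differed little between the WT lines (log2 difference -0.15, SE 0.047, adjusted p = 0.00752), a call lost without replicate 1 of WT_8905 (adjusted p = 0.106). Atp6v1d, a stalk subunit of the vacuolar proton pump, was at 85.6 to 114 CPM in NIC/Cpt1aL/L libraries, 154 and 166 CPM in WT_8905 and 319 and 321 CPM in WT_5257.

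In mitochondria and metabolism 20 of 22 members were lower in NIC/Cpt1aL/L lines (median -1.16), and 19 of 22 were called lower in WT_8905 and 1 higher. The exceptions were Cmpk2, a mitochondrial nucleotide kinase next to Rsad2, and Aspg, an asparaginase. Dlst, the succinyltransferase of the 2-oxoglutarate dehydrogenase complex, was at 89.1, 123 and 149 CPM in NIC/Cpt1aL/L libraries, 254 and 248 CPM in WT_5257 and 141 and 146 CPM in WT_8905. Its NIC/Cpt1aL/L libraries overlapped WT_8905 and not WT_5257, and so did those of Glrx5, a glutaredoxin of iron-sulfur cluster assembly, at 35.1 to 59.0 CPM against 56.0 and 59.6 CPM in WT_8905 and 122 and 131 CPM in WT_5257. Pnpla8, a calcium-independent phospholipase of mitochondria and peroxisomes, did not overlap, with 62.3 to 121 CPM against 153 and 154 CPM in WT_8905 and 252 and 262 CPM in WT_5257.

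For signalling kinases, GTPases and scaffolds 19 of 20 members were lower in NIC/Cpt1aL/L lines (median -0.89), all but Inf2, with 15 called lower in WT_8905 and 3 higher. Numb, an adaptor that restrains Notch signalling (chr12:83794034-83921934, minus strand), was at 35.0, 44.3 and 79.3 CPM in NIC/Cpt1aL/L libraries against 293 to 485 CPM in the NIC/Cpt1a+/+ libraries. Its log2 difference between genotypes was -2.82 (SE 0.37) and that between the WT lines -0.67 (SE 0.049). Mark3, a polarity kinase, had means of 88.1 ± 16.7 and 138 ± 36.2 CPM.

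Of the 6 receptors, channels and transporters 4 were lower in NIC/Cpt1aL/L lines, and 4 of 5 tested were called lower in WT_8905 and none higher. Slc39a9, a zinc transporter, was at 53.4, 55.5 and 64.2 CPM in NIC/Cpt1aL/L libraries, 181 and 179.8 CPM in WT_5257 and 93.9 and 97.5 CPM in WT_8905. Tmem18, a nuclear membrane protein, gave 21.8 to 34.3 CPM, 48.4 and 42.5 CPM in WT_8905 and 106 and 108 CPM in WT_5257. Slc39a9 overlaps Erh on the other strand.

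**Figure D4:**
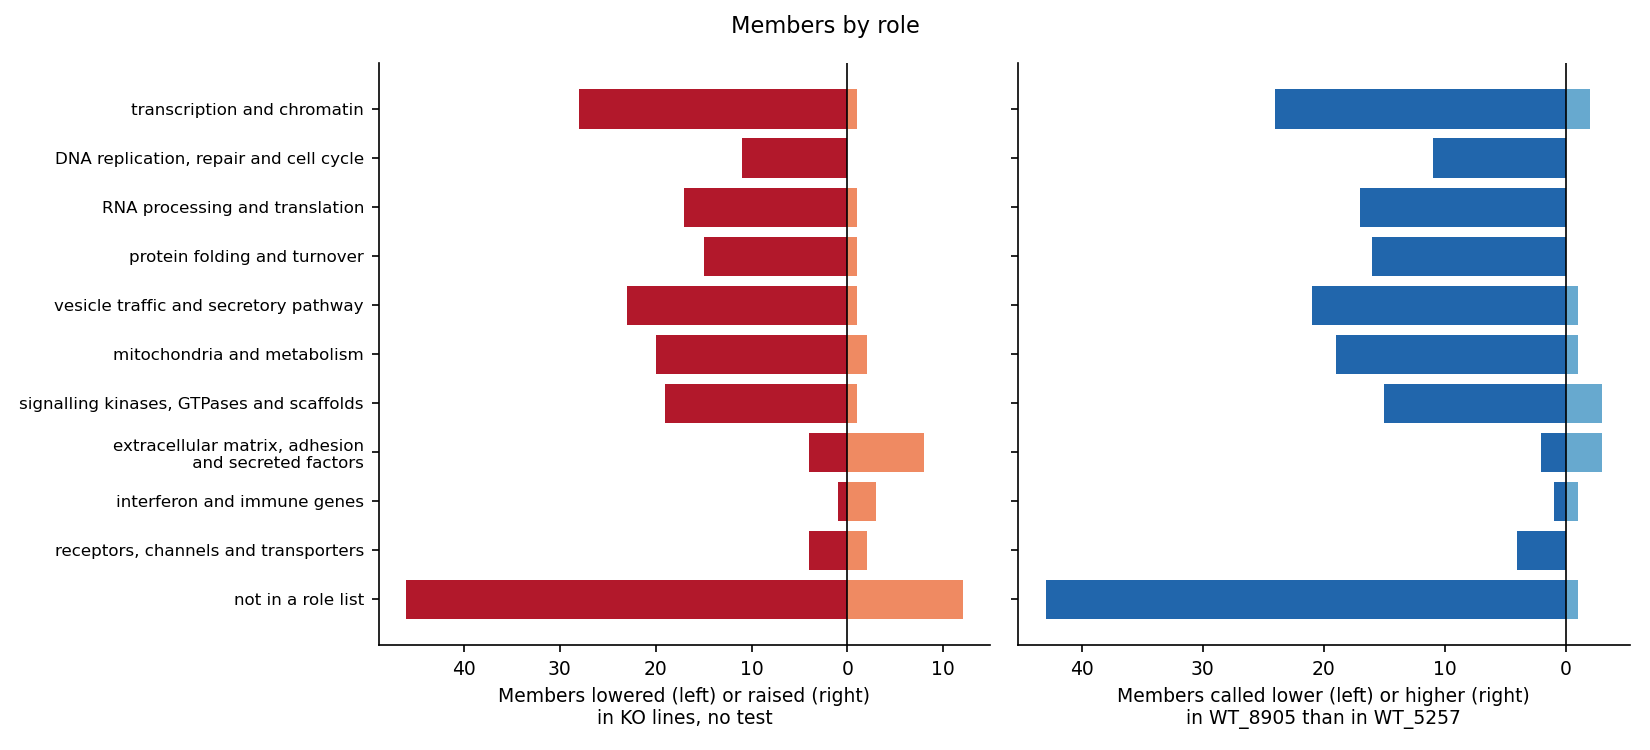
Members in each role list, with bars to the left for lower and to the right for higher levels, in NIC/Cpt1aL/L against NIC/Cpt1a+/+ lines (left panel, no test) and in WT_8905 against WT_5257 at an adjusted p under 0.05 (right panel). Bars point mostly left for 7 lists of general cell machinery in both panels, and the extracellular list has 8 of 12 members to the right in the left panel.

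The extracellular and immune lists held more higher than lower members, as did all listed genes, of which 2501 of 4268 were higher in NIC/Cpt1aL/L lines. Of 12 members for extracellular matrix, adhesion and secreted factors 8 were higher in NIC/Cpt1aL/L lines and 4 lower (median 1.61), and 2 of 10 were called lower in WT_8905 and 3 higher. In the immune list 3 of 4 were higher, and 1 of 4 was called lower in WT_8905 and 1 higher. These counts are small, and against the backgrounds of 27.0% lower and 38.5% higher in WT_8905 nothing is read from them about the lists. Sdc1, an epithelial heparan sulfate proteoglycan (chr12:8771323-8793715, plus strand), was at 135, 292 and 657 CPM in NIC/Cpt1aL/L libraries, 78.5 and 75.05 CPM in WT_5257 and 149 and 149 CPM in WT_8905, so the genotypes overlapped. Lamb1, the laminin beta chain of basement membranes, overlapped too, at 191 to 349 CPM against 170.2 to 233 CPM.

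Papln and Tgfb3 were lower members of the same list. Papln, an extracellular matrix glycoprotein (chr12:83763634-83792382, plus strand), was at 0.124, 4.90 and 125 CPM in NIC/Cpt1aL/L libraries, 1923 and 2008 CPM in WT_5257 and 1124 and 1061 CPM in WT_8905. Tgfb3, a growth factor of the TGF-beta family (chr12:86056744-86079041, minus strand), was at 18.3, 42.6 and 183 CPM against 609 and 593 CPM in WT_5257 and 329.7 and 329.8 CPM in WT_8905. In both genes KO_2768 was highest and KO_4258 lowest of the NIC/Cpt1aL/L lines, and no library reached the NIC/Cpt1a+/+ range. Tgfb3 overlaps Ttll5 on the other strand.

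The largest lower values, among members with a mean FPKM of at least 1 in either genotype, belonged to Mfsd7c, Dpf3, Papln, Tspan13 and Tc2n, and they were chosen for that size. Mfsd7c, a transporter of the major facilitator family that RefSeq names Flvcr2 (chr12:85746539-85813585, plus strand), was at 0, 1.25 and 5.77 CPM in NIC/Cpt1aL/L libraries, 316 and 323 CPM in WT_5257 and 87.9 and 90.5 CPM in WT_8905. Tspan13, a tetraspanin, was at 0.302, 3.40 and 10.1 CPM, with 249 and 249.9 CPM in WT_5257 and 56.1 and 55.2 CPM in WT_8905. Tc2n, which has tandem C2 domains (chr12:101645443-101718523, minus strand), was at 60.5, 89.6 and 247 CPM, with 2167 and 2113 CPM in WT_5257 and 808 and 805 CPM in WT_8905. Their differences between WT lines, -1.84 (SE 0.056), -2.16 (SE 0.065) and -1.41 (SE 0.047) on the log2 scale, were larger than the members' median. Dpf3, a subunit of BAF chromatin remodelling complexes, was near 0 in NIC/Cpt1aL/L libraries, at 0 to 0.152 CPM, and at 1.05 to 11.9 CPM in the NIC/Cpt1a+/+ libraries.

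The 32 higher members had a median log2 difference of 4.38, or 3.13 with members at 0 reads in all NIC/Cpt1a+/+ libraries set to the floor of 3 reads. Several were neighbours in the order of tested members, with runs of 6 from Aspg to Jag2, 4 from Ifi27l2a to Serpina3m and 4 from Gm8300 to Gm5662. Among the better expressed, Lgmn, a lysosomal cysteine protease (chr12:102394084-102439813, minus strand), was at 64.0, 80.6 and 88.7 CPM in NIC/Cpt1aL/L libraries, 32.0 and 34.2 CPM in WT_5257 and 25.3 and 25.8 CPM in WT_8905. Inf2, a formin of actin assembly (chr12:112588784-112615556, plus strand), was at 101, 168 and 179.6 CPM, with 43.6 and 37.0 CPM in WT_5257 and 93.6 and 91.7 CPM in WT_8905. Neither gene overlapped between genotypes. Lgmn was called lower in WT_8905 (log2 difference -0.38, SE 0.079, adjusted p = 7.55e-05) and Inf2 higher (1.21, SE 0.069, adjusted p = 2.04e-17).

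Other higher members were near the limit of counting in the NIC/Cpt1a+/+ lines. Bdkrb2, the constitutive bradykinin receptor, was at 2.05, 10.7 and 12.7 CPM in NIC/Cpt1aL/L libraries and 0.0594 to 0.255 CPM in the others. Gm2016 was at 2.64 to 4.81 CPM against 0 to 0.264 CPM. It is 1 of a group of near-identical predicted genes, so its counts are uncertain, as are those of the Serpina3 genes. Flrt2, a cell-surface ligand in adhesion and guidance, was at 0, 2.67 and 25.5 CPM against 0 reads in all NIC/Cpt1a+/+ libraries, so that its mean of 8.12 CPM was at least 39.7-fold higher, taking 3 reads in the shallowest of those libraries (0.205 CPM) as the floor. Without KO_2768, left out after the data were seen, the mean was 2.21 CPM and the bound 10.8-fold. Its highest library was that of KO_2768, as for the protease inhibitors Serpina3g (0, 1.05 and 25.1 CPM, against 0 to 0.198 CPM) and Serpina3i (0, 7.70 and 28.1 CPM, against 0.0683 to 0.319 CPM). KO_2768 was also the line with 1393 CPM of listed fibroblast markers, whose part in these values was not tested. The libraries of KO_4258 were at 0 CPM for Flrt2, 0 and 0.0503 CPM for Serpina3g and 0 and 0.403 CPM for Serpina3i. None of these genes was thus above both NIC/Cpt1a+/+ lines in every NIC/Cpt1aL/L line.

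Interferon-induced members were highest in 1 line. Rsad2, an antiviral enzyme also called viperin, was at 6.38, 8.98 and 30.1 CPM in NIC/Cpt1aL/L libraries, 0.137 and 0.653 CPM in WT_5257 and 2.995 and 2.44 CPM in WT_8905, with both libraries of KO_1922 at the top. Ifi27l2a was at 0.289, 1.15 and 38.8 CPM against 1.38 to 1.96 CPM, and outside KO_1922 its NIC/Cpt1aL/L libraries reached 5.88 CPM in KO_2768 and lay on both sides of the others.

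The promoters of these members are shown where the letters searched were found before the start site, in members named here, and where the window holds no annotated exon of another gene. The RefSeq promoter table (GRCm38.p6) held a window from 250 bases before to 50 after the start for 184 of the 225 members. That start is not always the gene start used here, and lay 47784 bases from it in Pnpla8 and 71878 bases in Fntb. For the members printed below it was the same. CACGTG, the E-box bound by Myc and Max, was in 19 of 184 windows (10.3%), against 7.90% of 17492 protein-coding genes, and TGACNNNGC, the core of the antioxidant response element searched on both strands, was in 18 (9.78%), against 13.2%. A match is only a match of letters, and these shares were not tested. The 250 bases before the start are printed 5′ to 3′ on the strand of the gene, with the matched letters in capitals, for Mfsd7c (chr12:85746289-85746538) and Tc2n (chr12:101718524-101718773), which were lower, and for Rsad2 (chr12:26456453-26456702), Flrt2 (chr12:95691976-95692225) and Inf2 (chr12:112588534-112588783), which were higher.
Mfsd7c: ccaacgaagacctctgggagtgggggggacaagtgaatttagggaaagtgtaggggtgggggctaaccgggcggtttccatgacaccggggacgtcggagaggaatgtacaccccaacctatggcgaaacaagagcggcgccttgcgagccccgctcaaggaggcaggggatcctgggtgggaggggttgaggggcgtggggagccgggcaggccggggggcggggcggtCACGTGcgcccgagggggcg
Tc2n: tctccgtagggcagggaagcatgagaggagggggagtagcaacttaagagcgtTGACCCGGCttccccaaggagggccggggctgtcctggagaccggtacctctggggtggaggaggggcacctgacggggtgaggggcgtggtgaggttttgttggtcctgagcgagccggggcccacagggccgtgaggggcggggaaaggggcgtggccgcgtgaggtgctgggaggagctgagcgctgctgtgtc
Rsad2: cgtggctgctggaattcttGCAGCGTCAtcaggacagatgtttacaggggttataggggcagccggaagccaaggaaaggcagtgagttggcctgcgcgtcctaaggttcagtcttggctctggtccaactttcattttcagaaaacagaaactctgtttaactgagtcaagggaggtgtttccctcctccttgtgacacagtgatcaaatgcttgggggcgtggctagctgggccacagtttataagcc
Flrt2: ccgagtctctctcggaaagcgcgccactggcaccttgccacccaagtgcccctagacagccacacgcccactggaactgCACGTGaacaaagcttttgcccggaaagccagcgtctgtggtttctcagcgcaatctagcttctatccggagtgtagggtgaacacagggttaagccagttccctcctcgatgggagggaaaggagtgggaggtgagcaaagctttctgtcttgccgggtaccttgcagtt
Inf2: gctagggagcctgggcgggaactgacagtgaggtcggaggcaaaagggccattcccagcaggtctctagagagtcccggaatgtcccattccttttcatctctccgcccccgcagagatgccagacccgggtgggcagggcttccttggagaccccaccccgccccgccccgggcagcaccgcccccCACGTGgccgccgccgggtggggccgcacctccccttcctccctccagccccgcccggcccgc
CACGTG stands in the sequences of Mfsd7c, Flrt2 and Inf2, and TGACNNNGC in those of Tc2n and, as its reverse complement, Rsad2. Dlst, a lower member, also held TGACNNNGC before its start and is not printed, since that window overlaps an exon of Prox2 on the other strand.

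Differences among the NIC/Cpt1aL/L lines, the other contrast that did not choose the members, were as frequent among members as among all listed genes. Of 211 members 188 (89.1%) were called different among the 4 lines, against a background of 90.7%. These p-values too measure the spread between duplicate libraries and not between tumors. KO_2768, with 1 library, has no duplicate, so its calls rest on the spread of the other lines. KO_1922 was called lower than the mean of the other 3 lines for 58 members (27.5%, background 23.6%) and higher for 67 (31.8%, background 34.8%). KO_1925 was lower for 44 (20.9%, background 28.3%) and higher for 98 (46.4%, background 34.6%). KO_2768 was lower for 56 (26.5%, background 33.3%) and higher for 73 (34.6%, background 35.2%). KO_4258 was lower for 97 (46.0%, background 39.6%) and higher for 54 (25.6%, background 37.6%). The medians of the 4 contrasts were 0.02, 0.15, 0.02 and -0.12 on the log2 scale, all nearer to 0 than the -0.65 between the WT lines. The measures are unlike, since these contrasts set 1 line against the mean of 3 and the WT contrast sets 1 line against 1 other. Medians of other chromosomes ranged further for KO_4258, from -0.38 on chromosome 7 to 0.32 on chromosome 8.

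**Figure D5:**
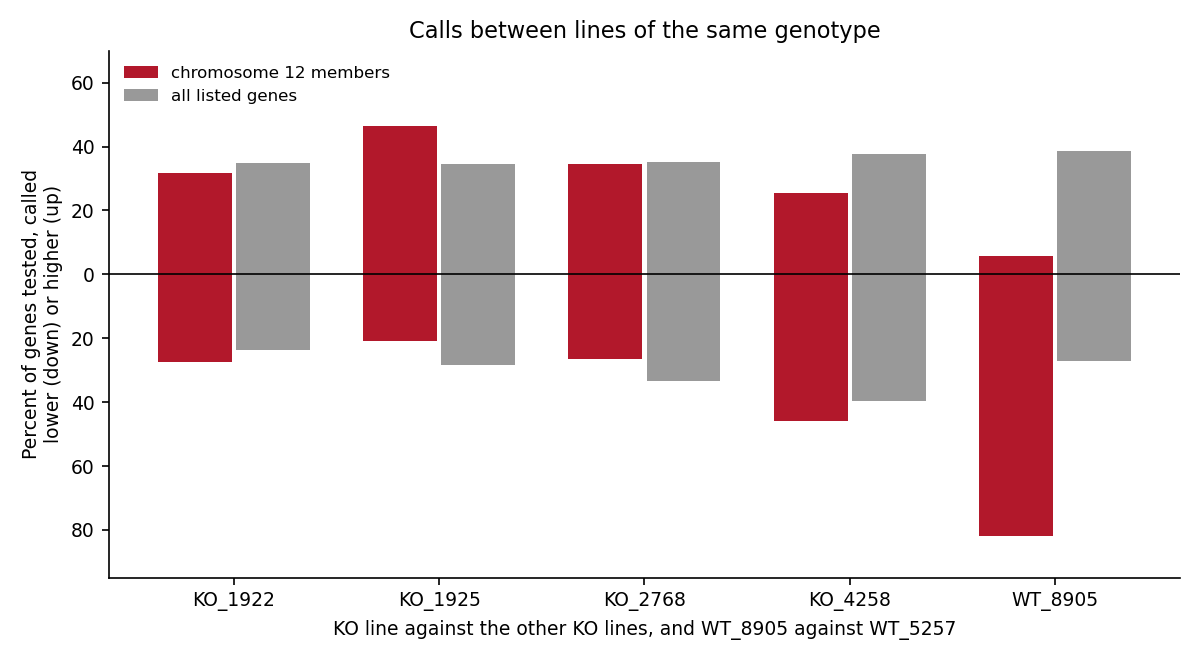
Percent of genes tested that were called lower (bars down) or higher (bars up) at an adjusted p under 0.05, for each NIC/Cpt1aL/L line against the other 3 and for WT_8905 against WT_5257, with members in dark red and all listed genes in grey. In the NIC/Cpt1aL/L contrasts the widest gap is for KO_4258, higher for 25.6% of members and 37.6% of listed genes, while 82.0% of members against 27.0% of listed genes are lower in WT_8905.

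The members that differed most among NIC/Cpt1aL/L lines were Egln3, Papln, Sdc1, Tgfb3 and Tc2n, chosen for the smallest p. By line, Egln3 was at 68.1 CPM in KO_1922, 20.2 in KO_1925, 280.2 in KO_2768 and 1.43 in KO_4258 (adjusted p = 3.43e-36). Papln was at 35.9, 4.88, 127 and 0.161 CPM in the same order (adjusted p = 2.06e-34), and Tgfb3 at 54.3, 42.2, 186 and 20.2 CPM (adjusted p = 6.47e-30). These 3 genes shared 1 order of the lines, with KO_2768 highest and KO_4258 lowest. Sdc1 was highest in KO_1925, at 663 CPM, and between 139.9 and 304 CPM in the other lines. Tc2n was highest in KO_4258, at 245 CPM against 62.2 to 90.7 CPM, and KO_4258 was also the line with 312 CPM of the immune marker Csf1r, whose part was not tested. At the other end, 23 members were not called among the NIC/Cpt1aL/L lines, and 21 of them (91.3%) were lower in those lines than in the NIC/Cpt1a+/+ lines, against 85.5% of all members tested and 63.7% of 270 such genes of other chromosomes. Among the 21 were Setd3 (adjusted p = 0.562), the chaperone regulator Bag5 (adjusted p = 0.439) and the polyadenylation endonuclease Cpsf3 (adjusted p = 0.644). Others of the 21 had few reads in NIC/Cpt1aL/L lines, such as Dpf3, Catsperb and Unc79 with means of 0.0659, 0.0599 and 0.0306 CPM. For such genes a missing call does not show alike levels, and the share that was lower comes from the contrast used for the listing.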

How the data were processed

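RNA from 6 tumor-derived cell lines was analyzed as 11 libraries. The authors trimmed, aligned and counted reads (the submitters' processing notes name Trimmomatic, STAR, HTSeq, edgeR and limma, with builds GRCm38 and mm10) and deposited 1 table with raw read counts per gene, a normalized signal (counts divided by 1 size factor per library), FPKM (counts per gene length and library total) and gene length (another column of the deposited table). Its columns with the genotype comparison of the authors (fold change, p, adjusted p) were not used. Library totals were recovered from deposited counts, lengths and FPKM.

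The members, lists and named genes were chosen with earlier results of these data known. Role lists and markers came from general knowledge. 42 members met the rule for naming: the 3 with the highest FPKM in each role list, the 5 largest differences in each direction with FPKM of at least 1, the 5 smallest p among KO lines, the 5 higher members of highest FPKM, and the first and last member. Greb1, Rin3, Cmpk2, Aspg, Bag5, Cpsf3 and others given without full values were named after their values were seen. 5 genes are not reported here: 4 left out of the members, and 1 member that met the rule.

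Duplicates were summed by line for genotype differences, with CPM by line. TMM factors came from genes kept by filterByExpr (4268 by line, 3951 by library, of which 220 and 211 were members) and lay between 0.969 and 1.05 by line. Lines were compared with edgeR 4.0.16 (glmQLFit and glmQLFTest, 1 coefficient per line, 5 residual and 29.3 prior degrees of freedom) in R 4.3.3 with limma 3.58.1, and p-values were adjusted by Benjamini-Hochberg over the listed genes tested, threshold 0.05. SE is the log2 difference over the root of F. CPM of single libraries and of lines carry separate scalings. Ratios of single lines to the WT mean used CPM plus 0.1. DESeq2 1.42.0, library totals without TMM, DESeq2's size factors, no filter, each library as a sample, a replicate block and omitted lines or libraries were alternatives. The fits were tested on simulated data. Same-numbered duplicates did not deviate together (r from -0.0494 to 0.0712 between lines), and duplicates of a line differed by more than sampling noise (chi-square per degree of freedom 2.09 to 9.26, the highest in KO_4258), so they were kept as separate libraries. The floor of 3 reads covers counting error only, and was 0.115 to 0.205 CPM. Gene overlaps and the number of genes per chromosome came from GENCODE vM21 (GRCm38), in which 225 members had their identifier and 100 the same start and end. Figures used matplotlib 3.10.9 under Python 3.11.15.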

Additional observations from a re-analysis of the deposited data

Results flagged for a closer look

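In each gene the highest and the lowest of the 4 NIC/Cpt1aL/L lines were compared with the others by Dixon's ratio, the gap to the nearest line over the whole range. The ratio exceeded its 95% critical value for 4 lines in 5 of the 42 genes that met the rule for naming. KO_1922 stood apart in the interferon-induced genes Rsad2 (ratio 0.870) and Ifi27l2a (0.839), at 30.3 CPM and 35.3 CPM by line. KO_2768 stood apart in Flrt2 (0.844) and Serpina3g (0.959), at 25.9 CPM and 25.5 CPM, and KO_4258 in Tc2n (0.844), at 245 CPM. Over all 220 members tested by line 14 (6.36%) passed the value at one end or the other, where chance passes about 1 in 20 groups of normally distributed values. The ratio was taken on CPM without a log, and the members share the same 4 lines, so these rates are not compared. Tc2n had also been named for its small p among these lines.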

How the results depend on the processing

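The median log2 difference of members between genotypes, -0.92, was -1.07 with DESeq2's size factors, -1.07 with DESeq2 and -0.83 with the authors' size factors (chosen after seeing the data), and from -1.23 (without WT_8905) to -0.59 (without WT_5257) when single lines were left out. Relative to all listed genes it was -1.42, and from -1.79 to -0.92 without single lines, at the same 2 lines. The median of WT_8905 minus WT_5257, -0.65, was -0.83 with DESeq2's size factors, -0.81 with DESeq2 and from -0.74 to -0.64 without single libraries. Relative to all listed genes it was -0.77 and stayed between -0.81 and -0.71. The median of all listed genes in that contrast, 0.12, changed sign to -0.0415 with DESeq2's size factors, and their share called higher was 25.4% with DESeq2. The cause was not tested. Members called lower in WT_8905 numbered 168 to 178 over these alternatives, and members called among the NIC/Cpt1aL/L lines 176 to 196. Of the named genes' calls between WT lines, Id2 lost its call in 8 alternatives and Npc2 in 1, and Gm2016 gained one without replicate 1 of WT_8905 (adjusted p = 0.02116). With the duplicate number as a replicate block, 186 members were called among the NIC/Cpt1aL/L lines, 171 lower and 12 higher in WT_8905, and the genotype median with each library as a sample was -0.993 against -0.997 without the block. Duplicate numbers did not pair the samples, since differences between duplicates correlated at -0.0494 to 0.0712 between lines. With 4 lines against 2 and a table limited to listed genes, no value here measures genes outside it, and low members rest on few reads.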

Other observations

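Of 17 listed genes of other types on chromosome 12, 15 could be tested by line, and 11 of these (73.3%, against 38.2% of all listed genes) lay below both NIC/Cpt1a+/+ lines in all 4 NIC/Cpt1aL/L lines. Of 13 tested by library, 3 (23.1%) were called lower and 3 (23.1%) higher in WT_8905 than in WT_5257, against 27.0% and 38.5% of all listed genes, and on these few genes the shares are not read as a difference.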
